A study of Mus musculus with 13 samples.

Results

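The integrated stress response is the cellular programme in which phosphorylated eIF2 alpha slows general translation and lets the transcription factor Atf4 be made. A list of 47 genes of this programme and of Atf4 targets was followed here in mouse cortex, comprising eIF2 kinases, eIF2 alpha with the eIF2B subunits, transcription factors, eIF2 phosphatase subunits, stress effectors, amino acid and one-carbon enzymes, amino acid transporters and cytosolic tRNA synthetases. Members were the rows of the deposited expression table whose gene name is on the list, and 46 of the 47 have an entry among the 53832 entries of the table (Mars, the methionyl-tRNA synthetase, is not analysed here). All 46 passed the minimum mean of 0.5 TPM (a length-corrected share of all transcripts in a library), so no member was lost to the filter.

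The study sequenced poly(A) RNA from right cortices of perfused mice in 13 libraries. APP/PS1 mice treated with trazodone gave 4 libraries, APP/PS1 mice given distilled water gave 3 and wild-type (WT) mice given distilled water gave 6, and all sample titles state 2 weeks. APP/PS1 mice carry transgenes that lead to amyloid deposition and serve to model Alzheimer's disease, and trazodone is an antidepressant that acts on serotonin receptors and serotonin reuptake. The sources used here do not give the APP/PS1 line and its promoter, the strain background, the age, the sex or the trazodone dose. No WT group received trazodone, and each library was treated as 1 animal.

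In this pathway the kinases Eif2ak1 (HRI), Eif2ak3 (PERK) and Eif2ak4 (GCN2) phosphorylate eIF2 alpha, which then inhibits its own exchange factor eIF2B. Atf4 is controlled mainly at translation, so its messenger level need not follow its activity, and Atf4 protein induces amino acid enzymes, transporters, tRNA synthetases and the phosphatase subunit Ppp1r15a (GADD34), which directs dephosphorylation of eIF2 alpha. Trazodone has been reported in mice to act on signalling downstream of phosphorylated eIF2 alpha, and sustained eIF2 alpha phosphorylation has been described in models of neurodegeneration. RNA-seq measures neither phosphorylation nor translation.

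Estimated depth was 33.7 to 37.4 M fragments in APP/PS1 trazodone, 31.2 to 32.3 in APP/PS1 water and 32.5 to 34.5 in WT water. The APP/PS1 water libraries stood apart from the other 10, first as the shallowest, by a narrow margin. Log2 TPM sloped on gene GC content by 0.03 to 0.14 per 10 percentage points in APP/PS1 trazodone, -0.23 to -0.16 in APP/PS1 water and -0.04 to 0.10 in WT water. Mitochondrially encoded genes held 8.96 to 10.7% of TPM in APP/PS1 trazodone, 13.1 to 15.01% in APP/PS1 water and 9.07 to 12.3% in WT water. Each comparison is therefore also given, where it matters, after a correction of every library for GC content and transcript length. The cell type markers of cortex were present in all libraries, neuronal ones with the highest sum (7 markers, summed TPM 5165 to 5593 in APP/PS1 trazodone, 4812 to 5374 in APP/PS1 water and 5273 to 5901 in WT water). Microglial markers summed to 575 to 696, 680.0 to 802 and 263 to 327 TPM in the same order, with 4 of 6 higher in APP/PS1 water than in WT water, and 3 of 5 astrocyte markers were also higher there. In that comparison 3 of 7 neuronal, 3 of 5 striatal and 1 of 6 oligodendrocyte markers were lower, and with trazodone 3 neuronal, 1 striatal and 1 oligodendrocyte marker were higher than in APP/PS1 water. Over all entries 6.19% were higher and 17.5% lower in APP/PS1 water than in WT water, and 12.5% were higher with trazodone than in APP/PS1 water. Choroid plexus markers reached 2203 TPM in WT water, where WT water 3 and 6 had high Ttr (471 and 2151 TPM), against at most 25.5 and 27.1 in APP/PS1 trazodone and APP/PS1 water. The part of these differences in the results on the members was not tested.

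Changes were called at an adjusted p under 0.05 in limma over 18612 entries. Between APP/PS1 water and WT water, 2 members were higher and 9 lower of 46, beside a background of 6.19% of all entries higher and 17.5% lower. The median log2 fold change of the members was -0.16, against -0.10 over all entries. Between APP/PS1 trazodone and APP/PS1 water, 5 members were higher and 1 lower, beside backgrounds of 12.5% and 3.92% (medians 0.09 and 0.07). Those shares are near the background, so the counts are not a result about the programme, and the description below is of its individual genes. The groups did not overlap for 12 members in the first comparison (background 23.1%) and for 10 in the second (26.5%). Both comparisons use the same 3 APP/PS1 water libraries, so a value that is low in those libraries appears as lower in the first and higher in the second. In bulk tissue, fewer cells of a type and less RNA per cell cannot be told apart.

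After the correction for GC content and length, 3 members were higher and 4 lower in APP/PS1 water than in WT water (backgrounds 6.45% and 6.16%). In APP/PS1 trazodone against APP/PS1 water, 0 were higher and 2 lower (2.45% and 1.63%). None of the 46 was called between APP/PS1 trazodone and WT water by limma before or after the correction, with 0 members in either direction at an unadjusted p under 0.05. All entries gave 1.97% higher and 0.258% lower in that comparison (2.2% and 0.383% corrected), and 6.69% and 6.52% at the unadjusted p. The groups of APP/PS1 trazodone and WT water overlapped for each of the 46 members (background without overlap 5.07%). The median log2 fold change of the members there was -0.07, against -0.04 over all entries.

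The balance of higher and lower calls also depended on the scale. Besides TPM, the deposited FPKM values, median-ratio scaling, quantile normalization and TPM rescaled without mitochondrial, ribosomal protein and hemoglobin genes were fitted. With median-ratio scaling, 6 members were higher and 3 lower in APP/PS1 water than in WT water (1972 and 2095 of all entries), and 3 were higher and 4 lower with trazodone than in APP/PS1 water (1665 and 1336 of all entries). Calls that these scales ended or added are given beside each gene.

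**Figure D1:**
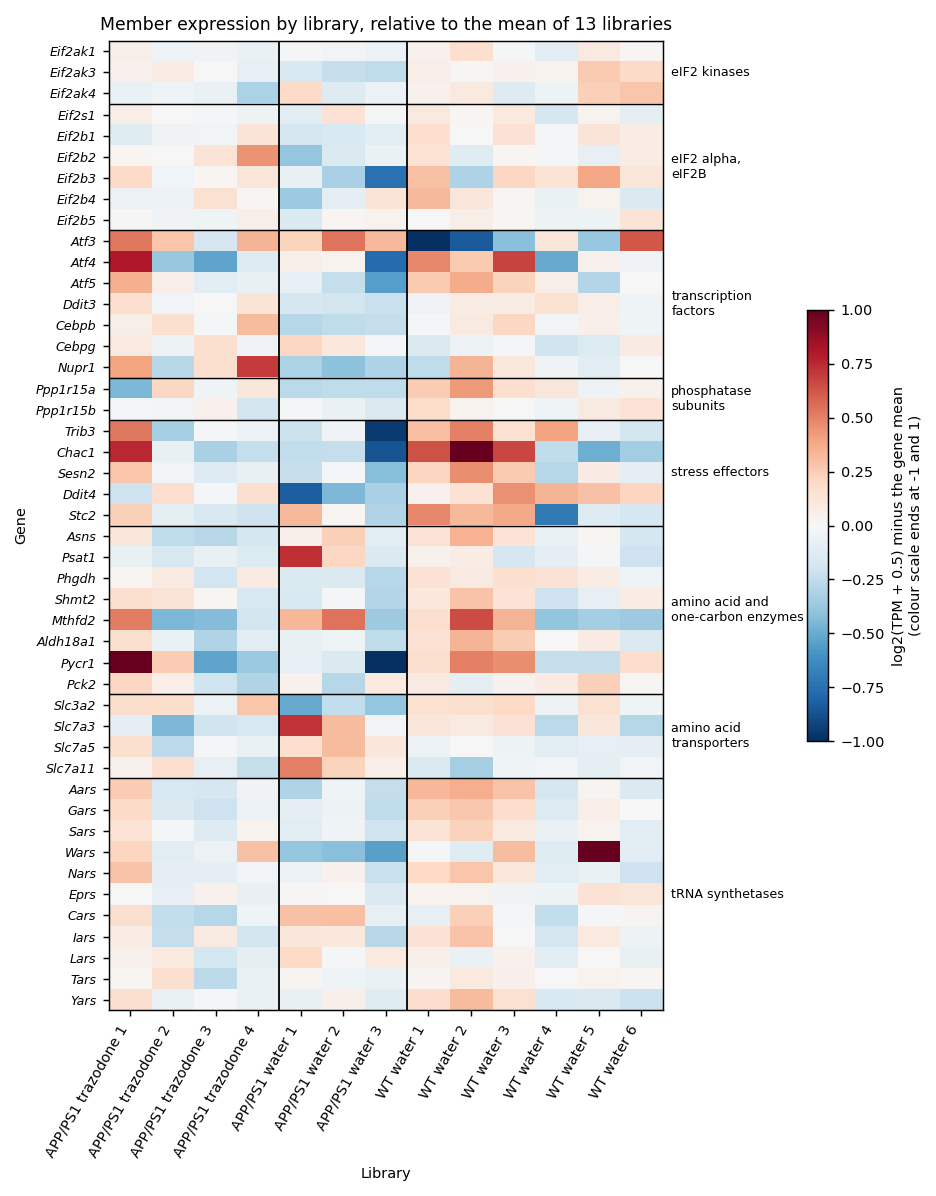
Heat map of the 46 members (rows, grouped by role) in 13 libraries (columns, APP/PS1 trazodone, APP/PS1 water and WT water), coloured by log2(TPM + 0.5) minus the mean of the gene over all libraries, on a scale that ends at -1 and 1. Ddit4, Slc3a2 and Cebpb are below their mean in all 3 APP/PS1 water libraries, and many amino acid genes and synthetases are high in APP/PS1 trazodone 1 and in WT water 1 to 3.

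Among the 3 eIF2 kinases, Eif2ak3 was lower in APP/PS1 water than in WT water. Eif2ak3 (MSTRG.18888, GRCm38 chromosome 6, 70844515 to 70905245), the kinase that senses unfolded protein in the endoplasmic reticulum, measured 20.6, 21.0, 20.1 and 18.8 TPM in APP/PS1 trazodone and 17.8, 16.9 and 16.7 TPM in APP/PS1 water, against a lowest, median and highest of 20.1, 20.7 and 24.0 TPM in WT water. The 3 APP/PS1 water libraries lay below all others. The log2 fold change was -0.32 ± 0.08 (SE; adjusted p = 0.00815) against WT water and 0.23 ± 0.08 (adjusted p = 0.0766) for trazodone against APP/PS1 water. With the libraries corrected for GC content and length, both were smaller, at -0.16 ± 0.06 (adjusted p = 0.0787) and 0.09 ± 0.06 (adjusted p = 0.483). Eif2ak4, which senses uncharged tRNA, averaged 14.4 ± 1.30, 15.8 ± 1.94 and 16.7 ± 1.88 TPM in APP/PS1 trazodone, APP/PS1 water and WT water (SD; n = 4, 3 and 6). Eif2ak1, the kinase that responds to heme and mitochondrial stress, averaged 44.6 ± 1.67, 44.2 ± 0.681 and 46.4 ± 3.04 TPM. Neither was called in any comparison.

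Of the 6 genes of eIF2 alpha and eIF2B, Eif2b1 and Eif2b3 were lower in APP/PS1 water than in WT water and none was called with trazodone. Eif2s1, which encodes eIF2 alpha itself, averaged 25.7 ± 0.918, 25.9 ± 2.43 and 25.8 ± 1.88 TPM in APP/PS1 trazodone, APP/PS1 water and WT water. Eif2b3 (MSTRG.15821, chromosome 4, 117019402 to 117087306), the gamma subunit of eIF2B, measured 16.7, 14.3, 14.8 and 15.9 TPM in APP/PS1 trazodone and 13.8, 11.5 and 8.50 TPM in APP/PS1 water, against 11.7, 16.5 and 19.2 TPM (lowest, median, highest) in WT water. APP/PS1 water 1 and the lowest WT library overlap. Its log2 fold change was -0.52 ± 0.15 (adjusted p = 0.0255) against WT water, and 0.46 ± 0.17 (adjusted p = 0.0799) for trazodone against APP/PS1 water, which was called without APP/PS1 water 1 (0.61, adjusted p = 0.0361) or WT water 2 (adjusted p = 0.0405). Eif2b1 (MSTRG.17892, chromosome 5, 124570213 to 124579131), the alpha subunit that binds phosphorylated eIF2 alpha, measured 24.3, 25.8, 25.9 and 28.9 TPM in APP/PS1 trazodone and 23.5, 23.7 and 24.5 TPM in APP/PS1 water, against 26.2, 28.4 and 29.8 TPM in WT water. The APP/PS1 water libraries lay below the WT range (-0.23 ± 0.07, adjusted p = 0.0327; -0.16 ± 0.07 and adjusted p = 0.161 after the GC and length correction). The Eif2b1 call ended on all 4 other scales (-0.16 to -0.11, adjusted p 0.121 to 0.323), and that of Eif2b3 with FPKM (adjusted p = 0.0501) and median-ratio scaling (0.0504). Eif2b3 was still called lower after the GC and length correction, the only 1 of these 6 genes that was. The call for Eif2b3 ended without APP/PS1 water 2 (adjusted p = 0.0586) or 3 (0.149), and that for Eif2b1 without any 1 APP/PS1 water library (0.0568 to 0.0961) or without WT water 1, 3 or 5 (0.0576 to 0.0644). The beta, delta and epsilon subunits Eif2b2, Eif2b4 and Eif2b5 were not called; Eif2b2 was closest with trazodone (38.2 ± 5.88 TPM, against 29.8 ± 3.42 in APP/PS1 water; 0.35 ± 0.11, adjusted p = 0.0506). It was called without APP/PS1 trazodone 2 (adjusted p = 0.0497) or APP/PS1 water 3 (0.0475) and was 0.11 ± 0.11 after the correction.

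No difference in Atf4 was called between the groups, inside which it varied widely. Atf4 (MSTRG.8149, chromosome 15, 80255184 to 80257541), the central transcription factor of the programme, measured 217, 95.6, 86.3 and 113 TPM in APP/PS1 trazodone and 129, 127 and 72.8 TPM in APP/PS1 water, against 87.5, 139 and 199 TPM in WT water. The 3 groups overlap, and the highest and the second lowest library are both APP/PS1 trazodone. The log2 fold change was -0.38 ± 0.30 (adjusted p = 0.390) for APP/PS1 water against WT water and 0.17 ± 0.32 (adjusted p = 0.772) for trazodone against APP/PS1 water. The standard errors were larger for Atf4 than for each of the 13 members called in at least 1 comparison, so that differences of the sizes called for most of those 13 were not detectable for it.

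Of the other 6 transcription factors, Ddit3 and Cebpb were lower in APP/PS1 water than in WT water, and Ddit3, Cebpb and Nupr1 were higher with trazodone. Ddit3 (MSTRG.2897, chromosome 10, 127290774 to 127296288) encodes CHOP, a factor linked to death under prolonged endoplasmic reticulum stress. It measured 67.7, 59.2, 60.4 and 66.4 TPM in APP/PS1 trazodone and 53.5, 53.2 and 51.5 TPM in APP/PS1 water, against 58.7, 63.4 and 67.1 TPM in WT water. All 3 APP/PS1 water libraries lay below both other groups, with log2 fold changes of -0.24 ± 0.06 against WT water (adjusted p = 0.0132) and 0.26 ± 0.07 for trazodone (adjusted p = 0.0192). The GC and length correction gave -0.27 ± 0.07 (adjusted p = 0.0177) and 0.27 ± 0.07 (adjusted p = 0.05004, not under the threshold). Both Ddit3 calls ended on each of the 4 other scales, with values of -0.18 to -0.11 against WT water (adjusted p 0.0643 to 0.250) and 0.16 to 0.20 with trazodone (adjusted p 0.0701 to 0.165). Leaving out APP/PS1 water 3 ended the call against WT water (adjusted p = 0.0506), and the call with trazodone ended without APP/PS1 trazodone 1 (0.0550) or APP/PS1 water 2 (0.0526) or 3 (0.0580). The gene model of Ddit3 overlaps that of Mars on the opposite strand only from 127296221 to 127296288. Mars has no entry of its own and strandedness is not stated, so whether the Ddit3 entry holds reads of Mars was not tested.

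Cebpb (MSTRG.13548, chromosome 2, 167688915 to 167690418), a partner of Atf4 that also serves inflammatory genes, changed direction with the correction. It measured 27.0, 29.0, 25.6 and 32.3 TPM in APP/PS1 trazodone and 21.2, 21.6 and 21.9 TPM in APP/PS1 water, against 25.2, 26.2 and 29.99 TPM in WT water. As deposited, the APP/PS1 water libraries lay below both other groups (-0.30 ± 0.08, adjusted p = 0.0161 against WT water; 0.39 ± 0.09, adjusted p = 0.00919 with trazodone). After the GC and length correction the values were 0.25 ± 0.07 (adjusted p = 0.0343) and -0.27 ± 0.08 (adjusted p = 0.0679). Its transcript is 67.2% GC, the highest of the 46 members. The call against WT water also ended without APP/PS1 water 1 (adjusted p = 0.0506) or 2 (0.0517) and on all 4 other scales (-0.24 to -0.19, adjusted p 0.0507 to 0.164), and that with trazodone under quantile normalization (0.31, adjusted p = 0.0530). The model of Cebpb overlaps Tmem189, a gene on the opposite strand that likewise has no entry of its own.

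Nupr1 (MSTRG.21414, chromosome 7, 126623249 to 126630861), a small stress-induced chromatin protein, measured 18.6, 11.5, 15.7 and 23.1 TPM in APP/PS1 trazodone and 11.1, 10.4 and 11.2 TPM in APP/PS1 water, against 11.6, 13.8 and 17.8 TPM in WT water. The APP/PS1 trazodone libraries all lay above the APP/PS1 water ones, APP/PS1 trazodone 2 by a narrow margin (0.59 ± 0.19, adjusted p = 0.0473). That call ended without APP/PS1 trazodone 1, 3 or 4, any 1 APP/PS1 water library or WT water 3, 4, 5 or 6 (adjusted p 0.0551 to 0.129), and it was 0.49 ± 0.20 (adjusted p = 0.189) after the correction and 0.51 to 0.53 on the 4 other scales (adjusted p 0.0777 to 0.0998). Atf3, Atf5 and Cebpg were not called as deposited. Cebpg, a small C/EBP factor, was 0.18 ± 0.08 in APP/PS1 water against WT water (adjusted p = 0.139), and was called higher there with FPKM (0.26, adjusted p = 0.0270), median-ratio scaling (0.27, adjusted p = 0.0206) and quantile normalization (0.28, adjusted p = 0.0167). Atf3, a repressor induced by many stresses, averaged 3.76 ± 0.812, 4.07 ± 0.505 and 2.54 ± 1.41 TPM in APP/PS1 trazodone, APP/PS1 water and WT water, and WT water 6 at 4.94 TPM was the highest of the 13 libraries. Without WT water 6, Atf3 was higher in APP/PS1 water than in WT water (0.90, adjusted p = 0.0209), and without WT water 5, Atf5 was lower there (-0.47, adjusted p = 0.0215). With all libraries Atf5 was -0.39 as deposited (adjusted p = 0.0694), against a corrected value of -0.02 (adjusted p = 0.953). The model of Atf5 overlaps Il4i1, a gene on the opposite strand with no entry of its own.

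The phosphatase subunits direct the removal of phosphate from eIF2 alpha. Ppp1r15a (MSTRG.20428, chromosome 7, 45522916 to 45526268), the inducible subunit, measured 7.87, 12.7, 10.6 and 11.9 TPM in APP/PS1 trazodone and 8.99, 9.06 and 9.08 TPM in APP/PS1 water, against 10.6, 12.1 and 14.9 TPM in WT water. It was lower in APP/PS1 water than in WT water without overlap (-0.42 ± 0.14, adjusted p = 0.0406), while the APP/PS1 trazodone libraries spread across both (0.22 ± 0.15, adjusted p = 0.365 against APP/PS1 water). The call ended without APP/PS1 trazodone 3, any 1 APP/PS1 water library or WT water 1, 2, 3 or 4 (adjusted p 0.0516 to 0.101), and the corrected value was -0.19 ± 0.13 (adjusted p = 0.393). It was -0.36 to -0.31 on the 4 other scales, where it was not called (adjusted p 0.0827 to 0.128). The constitutive subunit Ppp1r15b averaged 32.5 ± 2.13, 31.7 ± 1.42 and 35.1 ± 2.10 TPM in APP/PS1 trazodone, APP/PS1 water and WT water and was not called.

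Among the 5 stress effectors, Ddit4 gave the clearest difference from WT water, and Trib3, Chac1, Sesn2 and Stc2 were not called. Ddit4 (MSTRG.2178, chromosome 10, 59949669 to 59951834) encodes REDD1, an inhibitor of mTORC1 signalling that is also induced by hypoxia and glucocorticoids. It measured 39.1, 50.7, 44.8 and 50.5 TPM in APP/PS1 trazodone and 25.3, 32.98 and 35.9 TPM in APP/PS1 water, against 46.6, 54.0 and 62.2 TPM in WT water. The 3 APP/PS1 water libraries lay below all 10 others. Ddit4 fell by 0.78 ± 0.12 on the log2 scale in APP/PS1 water against WT water (adjusted p = 0.000447), and the corrected value was -0.53 ± 0.11 (adjusted p = 0.00685). The call held under all 29 alternative settings tried. With trazodone it rose by 0.56 ± 0.13 (adjusted p = 0.00998), which became 0.25 ± 0.12 (adjusted p = 0.290) after the correction.

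The other effectors varied within the groups. Trib3 (ENSMUSG00000032715.9, chromosome 2, 152337422 to 152344032), a pseudokinase that restrains Atf4 and CHOP, was low throughout, at 1.92, 0.827, 1.152 and 1.10 TPM in APP/PS1 trazodone and 0.939, 1.13 and 0.360 TPM in APP/PS1 water, against 0.976, 1.46 and 1.87 TPM in WT water. The groups overlap (-0.59 ± 0.25, adjusted p = 0.103 against WT water). Chac1 (MSTRG.12931, chromosome 2, 119351229 to 119354381), an enzyme that degrades glutathione, measured 15.7, 8.63, 7.18 and 7.64 TPM in APP/PS1 trazodone and 7.60, 7.65 and 4.79 TPM in APP/PS1 water. The WT water libraries 1 to 3 measured 14.5, 18.8 and 14.8 TPM, and libraries 4 to 6 measured 7.54, 6.36 and 7.04 TPM. WT water was thus split into high and low libraries, and the difference of APP/PS1 water from WT water was -0.65 ± 0.34 (adjusted p = 0.190). Sesn2, a leucine sensor upstream of mTORC1, averaged 12.4 ± 1.73, 10.4 ± 1.53 and 13.4 ± 2.54 TPM in APP/PS1 trazodone, APP/PS1 water and WT water. Stc2, a secreted glycoprotein, averaged 1.18 ± 0.244, 1.27 ± 0.383 and 1.33 ± 0.522 TPM.

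**Figure D2:**
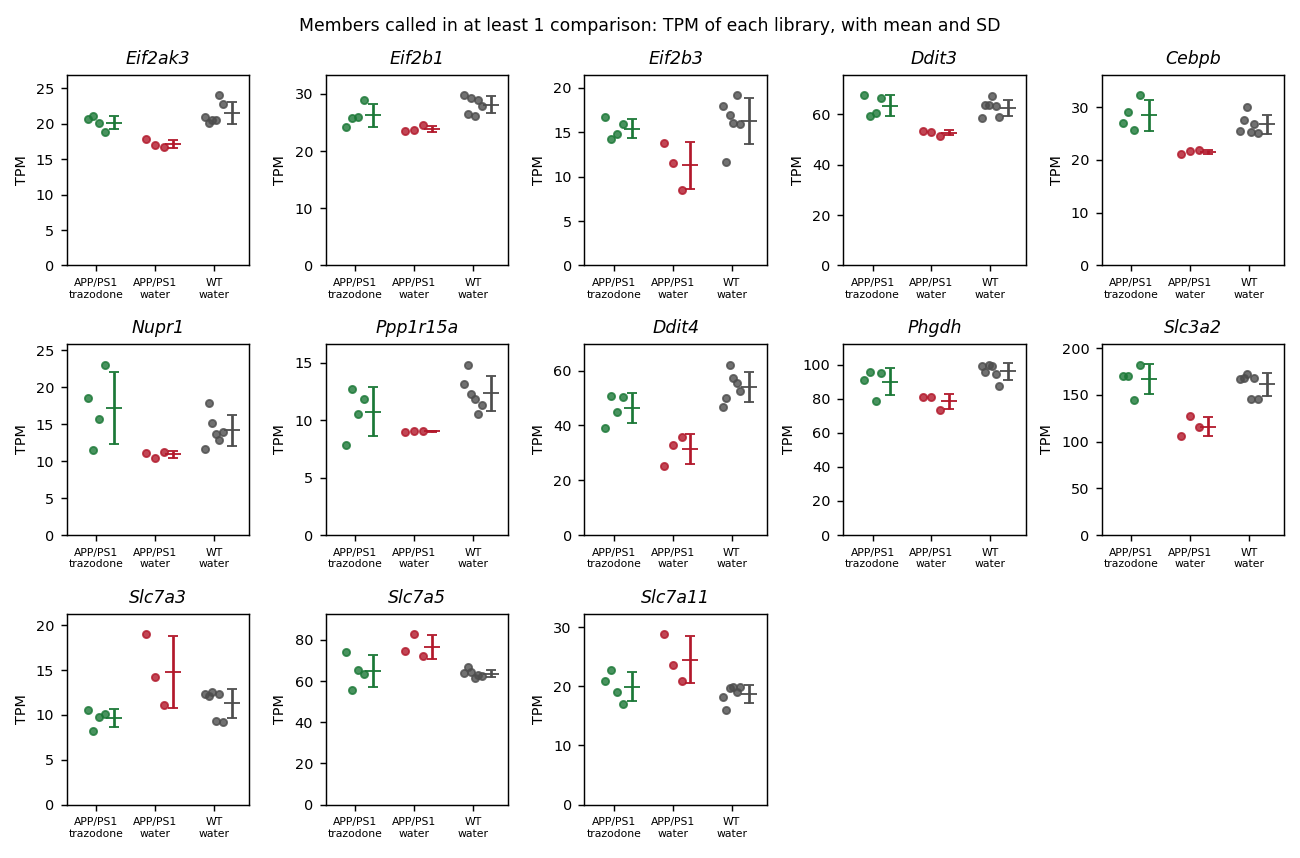
TPM (vertical axis, from 0) of the 13 members called in at least 1 comparison, 1 point per library, with the mean and SD of each group beside its points; APP/PS1 trazodone (n = 4), APP/PS1 water (n = 3) and WT water (n = 6) from left to right. For Ddit4, Slc3a2, Ddit3, Cebpb and Eif2ak3 the APP/PS1 water points lie below all others, and for Slc7a3 above all 4 APP/PS1 trazodone points.

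Of the 8 amino acid and one-carbon enzymes, Phgdh was the only one called on the TPM scale, and on 3 other scales Psat1 was called in place of it. Phgdh (MSTRG.14497, chromosome 3, 98313170 to 98339990), the first enzyme of serine synthesis, which is made largely in astrocytes, measured 90.9, 95.7, 78.8 and 95.5 TPM in APP/PS1 trazodone and 81.1, 81.3 and 73.6 TPM in APP/PS1 water, against 87.5, 97.5 and 100.2 TPM in WT water. APP/PS1 water lay below WT water without overlap (-0.29 ± 0.07, adjusted p = 0.0102), but leaving out APP/PS1 water 3 ended the call (adjusted p = 0.0551) and the corrected value was -0.05 ± 0.06 (adjusted p = 0.690). With FPKM, median-ratio scaling and quantile normalization Phgdh was -0.20, -0.19 and -0.15 and not called (adjusted p = 0.0698, 0.0983 and 0.136). Psat1, the next enzyme of the same pathway, measured 126 TPM in APP/PS1 water 1 and 68.4 to 87.2 TPM in the other two, against 65.2 to 79.6 TPM in WT water (0.33 ± 0.14, adjusted p = 0.101). On the same 3 scales Psat1 was called higher in APP/PS1 water than in WT water (0.41 to 0.48, adjusted p 0.0231 to 0.0295) and lower with trazodone than in APP/PS1 water (-0.50 to -0.43, adjusted p 0.0318 to 0.0432). Without APP/PS1 water 3 the Psat1 value was 0.53 (adjusted p = 0.00728), and that with trazodone was -0.58 (adjusted p = 0.00973). Phgdh was called with trazodone without APP/PS1 trazodone 3 (0.26, adjusted p = 0.0279). Asns (MSTRG.18400, chromosome 6, 7675169 to 7693254), the asparagine synthetase that is a standard readout of Atf4, measured 112, 86.5, 85.4 and 91.7 TPM in APP/PS1 trazodone and 107, 122 and 96.1 TPM in APP/PS1 water, against 91.3, 109 and 132 TPM in WT water. The groups overlap, with log2 fold changes of -0.01 ± 0.12 against WT water (adjusted p = 0.981) and -0.21 ± 0.13 with trazodone (adjusted p = 0.297). Shmt2, Mthfd2, Aldh18a1, Pycr1 and Pck2, enzymes of mitochondrial folate, proline and phosphoenolpyruvate metabolism, gave adjusted p-values of 0.161 or more in each comparison.

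Calls among the 4 amino acid transporters ran in both directions. Slc3a2 (MSTRG.11292, chromosome 19, 8706882 to 8723369) is the heavy chain shared by several light-chain transporters, Slc7a5 and Slc7a11 among them. It measured 170.3, 170.0, 145 and 183 TPM in APP/PS1 trazodone and 106, 127 and 115 TPM in APP/PS1 water, against 145, 167 and 173 TPM in WT water. The 3 APP/PS1 water libraries lay below all 10 others, at -0.47 ± 0.09 against WT water (adjusted p = 0.00142) and 0.52 ± 0.09 for trazodone against APP/PS1 water (adjusted p = 0.00230). The corrected values were -0.30 ± 0.08 (adjusted p = 0.0261) and 0.33 ± 0.09 (adjusted p = 0.0535).

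Both light chains were higher in APP/PS1 water than in WT water. Slc7a5 (MSTRG.22973, chromosome 8, 121881150 to 121907694), the LAT1 carrier of large neutral amino acids, measured 74.4, 55.5, 65.6 and 63.7 TPM in APP/PS1 trazodone and 74.8, 82.9 and 72.0 TPM in APP/PS1 water, against 61.4, 63.5 and 66.6 TPM in WT water. It was higher in APP/PS1 water than in WT water without overlap (0.26 ± 0.08, adjusted p = 0.0275; 0.53 ± 0.08, adjusted p = 0.00118 corrected). With trazodone it was -0.25 ± 0.09 (adjusted p = 0.0675) as deposited and -0.53 ± 0.09 (adjusted p = 0.00675) corrected, and APP/PS1 trazodone 1 overlaps the APP/PS1 water range. The call against WT water ended without APP/PS1 water 1 (adjusted p = 0.0520) or 2 (0.140), and the trazodone value without APP/PS1 trazodone 1 was -0.31 (adjusted p = 0.0205). On the 4 other scales the trazodone difference was called (-0.36 to -0.30, adjusted p 0.0108 to 0.0284). The model of Slc7a5 lies within Gm20388, a readthrough gene on the opposite strand with no entry of its own.

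Slc7a11 (MSTRG.13913, chromosome 3, 49892526 to 50443614), the cystine-glutamate exchanger xCT of astrocytes, measured 20.9, 22.7, 19.1 and 17.0 TPM in APP/PS1 trazodone and 28.8, 23.7 and 21.0 TPM in APP/PS1 water, against 16.0, 19.3 and 19.9 TPM in WT water. It was higher in APP/PS1 water than in WT water without overlap (0.37 ± 0.11, adjusted p = 0.0297; 0.34 ± 0.10, adjusted p = 0.0367 corrected) and not called with trazodone (-0.29 ± 0.12, adjusted p = 0.132). With median-ratio scaling and quantile normalization Slc7a11 was called lower with trazodone (-0.36 and -0.37, adjusted p = 0.0395 and 0.0336). Leaving out 1 library ended the call for APP/PS1 water 1 (adjusted p = 0.155) or 2 (0.0688) and WT water 1 (0.0518) or 2 (0.0550). Slc7a3 (MSTRG.25048, chromosome X, 101079210 to 101086020), a carrier of cationic amino acids found in neurons, measured 10.5, 8.20, 9.81 and 10.1 TPM in APP/PS1 trazodone and 19.0, 14.2 and 11.2 TPM in APP/PS1 water, against 9.21, 12.2 and 12.6 TPM in WT water. It was the only member lower with trazodone as deposited (-0.56 ± 0.17, adjusted p = 0.0372; -0.65 ± 0.16, adjusted p = 0.0409 corrected), with no overlap of the APP/PS1 groups. That call ended without any 1 APP/PS1 trazodone library or without APP/PS1 water 1 or 2 (adjusted p 0.0502 to 0.162). Without APP/PS1 water 3 Slc7a3 was higher in APP/PS1 water than in WT water (0.53, adjusted p = 0.0334), as it was with FPKM (0.41, adjusted p = 0.0472) and median-ratio scaling (0.45, adjusted p = 0.0458).

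**Figure D3:**
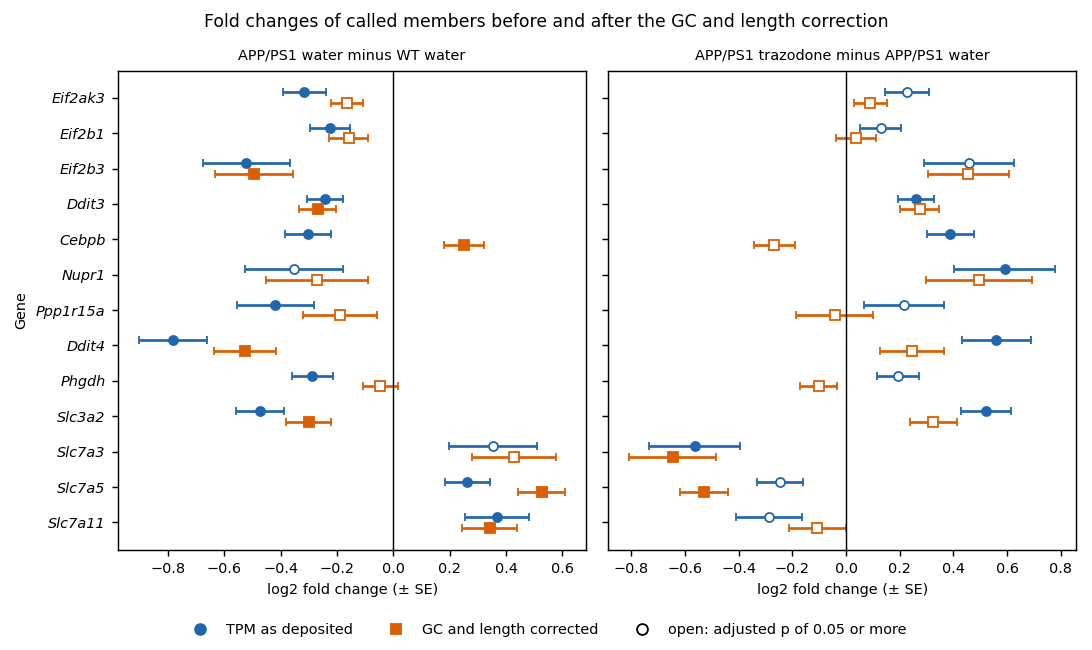
Log2 fold changes ± SE of the 13 called members for APP/PS1 water minus WT water (left) and APP/PS1 trazodone minus APP/PS1 water (right), from TPM as deposited (blue circles) and after the GC and length correction (orange squares); filled symbols have an adjusted p under 0.05. Cebpb crosses 0 in both panels, Phgdh moves to -0.05 on the left, and Ddit4 and Slc3a2 stay on their side of 0.

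None of the 11 measured tRNA synthetases was called in any comparison on the TPM scale, and Lars, the leucyl enzyme, was called higher in APP/PS1 water than in WT water with median-ratio scaling (0.21, adjusted p = 0.0403) and quantile normalization (0.23, adjusted p = 0.0318), against 0.12 (adjusted p = 0.296) as deposited. These enzymes charge tRNAs in the cytosol, and many are Atf4 targets. They lay at high levels, with Sars, Nars and Gars averaging 155 ± 12.1, 153 ± 20.6 and 123 ± 15.5 TPM in APP/PS1 trazodone, 142 ± 7.97, 143 ± 13.2 and 116 ± 8.56 TPM in APP/PS1 water, and 159 ± 14.1, 155 ± 20.3 and 137 ± 14.4 TPM in WT water. Their median log2 fold change was -0.09 in APP/PS1 water against WT water, 0.05 for trazodone against APP/PS1 water and -0.08 for trazodone against WT water, beside -0.10, 0.07 and -0.04 over all entries. Wars, the tryptophanyl enzyme, which is also induced by interferon, came closest. It measured 68.1, 54.2, 56.4 and 72.1 TPM in APP/PS1 trazodone and 44.6, 43.8 and 40.1 TPM in APP/PS1 water, against 53.7, 56.2 and 123 TPM in WT water. APP/PS1 water lay below both other groups without overlap (-0.62 ± 0.22, adjusted p = 0.0548 against WT water; 0.53 ± 0.23, adjusted p = 0.144 with trazodone). Without WT water 5, the highest library, the values were -0.44 (adjusted p = 0.0183) and 0.53 (adjusted p = 0.0110). The difference from WT water was also called without WT water 2, 4 or 6 (adjusted p 0.0448 to 0.0496), and that of Gars was called without WT water 4 (-0.28, adjusted p = 0.0488). The model of Aars, the alanyl enzyme, overlaps Exosc6, a gene on the same strand with no entry of its own, so reads of the overlap cannot be told apart.

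Other genes of the pathway were counted beside the members. Of 10 other genes of the eIF2 pathway, 1 was higher in APP/PS1 water than in WT water, 2 were lower with trazodone than in APP/PS1 water and 1 was higher with trazodone than in WT water. The shares over all entries were 6.19%, 3.92% and 1.97% in the same order. Dnajc3, the chaperone p58IPK that restrains Eif2ak3 and Eif2ak2, averaged 35.6 TPM in APP/PS1 trazodone, 42.8 in APP/PS1 water and 34.4 in WT water, at 0.31 ± 0.07 against WT water (adjusted p = 0.00528) and -0.27 ± 0.08 with trazodone (adjusted p = 0.0280; -0.15, adjusted p = 0.158 corrected). Impact, an inhibitor of Eif2ak4, averaged 191 TPM in APP/PS1 trazodone and 229 TPM in APP/PS1 water (-0.27 ± 0.07, adjusted p = 0.0227; -0.13, adjusted p = 0.2003 corrected). Eif2ak2, the interferon-induced kinase PKR, averaged 6.31 TPM in APP/PS1 trazodone and 4.03 TPM in WT water (0.58 ± 0.14, adjusted p = 0.0487; 0.63, adjusted p = 0.0127 corrected). Leaving out APP/PS1 water 2 ended the Impact and Dnajc3 calls with trazodone (adjusted p = 0.0684 and 0.0909), and leaving out APP/PS1 trazodone 3 ended that of Eif2ak2 (adjusted p = 0.147).

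Of 21 other Atf4-regulated genes tested, 1 was higher and 3 lower in APP/PS1 water than in WT water, 3 were higher with trazodone than in APP/PS1 water, and 1 was lower with trazodone than in WT water. The shares over all entries were 6.19%, 17.5%, 12.5% and 0.258% in the same order. Got1, the cytosolic aspartate aminotransferase, averaged 370.1 TPM in APP/PS1 trazodone, 299 in APP/PS1 water and 389 in WT water, and Slc6a9, the glycine transporter GlyT1, 38.8, 28.0 and 40.3 TPM. Both were lower in APP/PS1 water than in WT water (-0.38 ± 0.06, adjusted p = 0.000540, and -0.52 ± 0.10, adjusted p = 0.00186) and higher with trazodone (0.31 ± 0.06, adjusted p = 0.00568, and 0.46 ± 0.11, adjusted p = 0.00946), while after the correction the trazodone differences were 0.15 (adjusted p = 0.178) and 0.16 (adjusted p = 0.388). Against WT water the corrected values were -0.25 for Got1 (adjusted p = 0.00727), which stayed called, and -0.24 for Slc6a9 (adjusted p = 0.0874), which did not. Cbs, which makes cystathionine, was also lower in APP/PS1 water (-0.37 ± 0.09, adjusted p = 0.00748; -0.23, adjusted p = 0.0531 corrected). Jdp2, a transcription factor of the AP-1 family, was the other gene higher with trazodone (0.50 ± 0.13, adjusted p = 0.0179; 0.22, adjusted p = 0.329 corrected), and its adjusted p was 0.0713 without APP/PS1 water 1 and 0.0595 with median-ratio scaling. Aldh1l2 and Mthfd1l, mitochondrial folate enzymes named after their values were seen, gave the gene higher in APP/PS1 water than in WT water (0.77 ± 0.22, adjusted p = 0.0213) and the gene lower with trazodone than in WT water (-0.36 ± 0.08, adjusted p = 0.0334). The groups overlap for Aldh1l2, and without APP/PS1 water 1 it was no longer called (adjusted p = 0.0936). That of Mthfd1l ended without APP/PS1 trazodone 1 (adjusted p = 0.124) and with median-ratio scaling (0.0564).

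Inside the groups, many members had a positive correlation with Atf4 from library to library, but none passed adjustment over all entries. After the mean of each group was removed from log2(TPM + 0.5), Pearson r with Atf4 was computed over the 13 libraries for 18611 other entries, with an exact permutation within groups for each p. This relation and the mark of r at 0.8 were chosen after the values had been seen. Of 45 members, 6 reached r of 0.8 (13.3%), against 65 of all 18611 entries (0.349%), and 18 (40%) had a positive r with an unadjusted p under 0.05, against 4.87% of all entries. With adjustment over all entries 0 members and 0% of entries passed, so none of these relations is called on its own. The smallest possible permutation p is 9.65e-06, so an entry alone could not pass the adjustment over 18611 entries. The points are 13 libraries whose GC slope and depth also vary. Many members were high in the same libraries, APP/PS1 trazodone 1 and WT water 1 to 3, so the members counted are not independent of each other. In those libraries Aars measured 105 to 113 TPM, Yars 104 to 117 TPM and Gars 143 to 153 TPM. Elsewhere these 3 genes reached at most 89.6, 96.5 and 133 TPM, so their r rests largely on that split.

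Gars, the glycyl-tRNA synthetase (MSTRG.18793, chromosome 6, 55038007 to 55079500), had the highest r of all 18611 entries, at 0.92 (exact permutation p = 0.000540, adjusted p = 0.568; Spearman rho 0.91, exact permutation p = 0.000752, adjusted p = 0.525). It was 0.92 without APP/PS1 trazodone 1 and WT water 3, the 2 libraries farthest from the median of Atf4, and 0.89 after the GC and length correction. Gars measured 145, 115, 109.9 and 122 TPM in APP/PS1 trazodone and 119, 123 and 106 TPM in APP/PS1 water, against 115, 138 and 153 TPM in WT water. In each group the library lowest in Atf4 was also lowest in Gars. Pycr1, a proline synthesis enzyme, had r 0.84 (exact permutation p = 0.00451, adjusted p = 0.597; rho 0.71, p = 0.0186, adjusted p = 0.575), which was 0.72 without the 2 farthest libraries. Stc2 had r 0.83, Nars 0.82 and Sesn2 0.82, with exact permutation p-values of 0.000579, 0.00454 and 0.00220 (adjusted 0.568, 0.597 and 0.577). Their rho was 0.85, 0.86 and 0.83, with exact permutation p-values of 0.000367, 0.00252 and 0.00363 (adjusted 0.525, 0.543 and 0.543), and r was 0.85, 0.76 and 0.79 without the 2 farthest libraries. Mthfd2 and Chac1 fell into separate high and low libraries, so their coefficients are not described here. Mthfd2 is still in the count at 0.8, and Chac1 sets the median of the effectors given below.

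The relation was uneven between roles. The median r was 0.67 for the 11 synthetases, 0.70 for the 8 enzymes, 0.79 for the 5 effectors and 0.59 for the 4 transporters, against 0.01 for the 3 kinases, 0.00 for the 6 genes of eIF2 alpha and eIF2B, 0.26 for the 6 other transcription factors, -0.03 for the phosphatase subunits and 0.07 over all entries. The effector median is the r of Chac1 and the synthetase median that of Yars, and both genes were high in APP/PS1 trazodone 1 and WT water 1 to 3. Ddit4 stood apart from the other effectors at -0.49. The kinase values ran from -0.03 to 0.51. Of the 13 members called between groups, Slc7a3 and Slc7a5 had the highest r at 0.69 and 0.68, while Ddit3 had 0.27, Cebpb 0.19, Slc7a11 0.17 and Eif2ak3 0.01. After the GC and length correction 5 of 45 members (11.1%) and 0.333% of all entries reached 0.8. The lists outside the members had lower medians than the member synthetases, enzymes, effectors and transporters. Among the 21 other Atf4-regulated genes the median r was 0.29, and r was above 0 for 15. Only Slc1a4, a neutral amino acid transporter, reached 0.8 there, at 0.84. The median r was 0.18 for the 8 other cytosolic synthetases, 0.13 for the 16 mitochondrial ones and 0.18 for the 10 other eIF2 pathway genes.

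**Figure D4:**
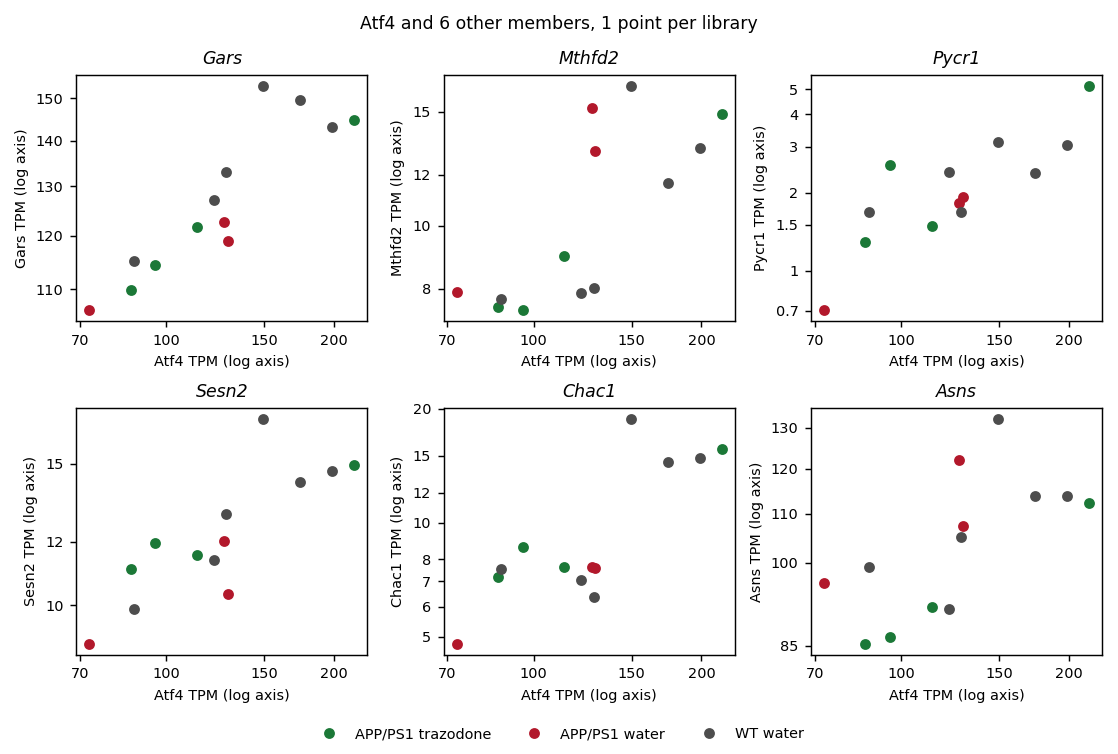
TPM of 6 members (vertical axes) against TPM of Atf4 (horizontal axes), both on log axes, 1 point per library and coloured by group, without removal of group means. Gars and Sesn2 climb with Atf4 across APP/PS1 trazodone, APP/PS1 water and WT water alike, while Chac1 and Mthfd2 split into high and low libraries.

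**Figure D5:**
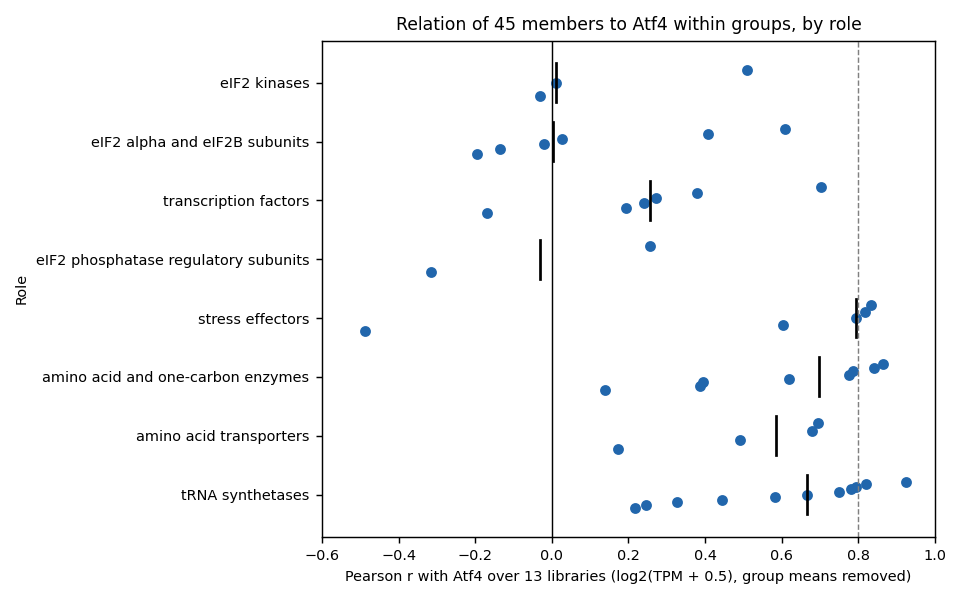
Pearson r of 45 members with Atf4 over 13 libraries after removal of group means, 1 point per gene by role, with black bars at the median of each role and a dashed line at 0.8. Synthetases, enzymes and effectors lie mostly to the right, with Ddit4 at -0.49. The medians of the kinases and of eIF2 alpha with eIF2B lie near 0, with single genes from -0.03 to 0.51 and from -0.19 to 0.61.

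Promoters of some members, chosen mostly by their relation to Atf4, which was not called, are shown for the amino acid response element. Atf4 with C/EBP partners is known to bind this sequence, searched here as TGATGNAA on either strand. The search covered the 250 bases before the start in the RefSeq promoter table (GRCm38.p6), which matched 39 of the 47 listed genes, Mars included. Of these 39, 10 (25.6%) hold at least 1 match, against 1056 of all 27025 genes in the table (3.91%). They are Atf3, Nupr1, Chac1, Asns, Pycr1, Pck2, Slc7a11, Aars, Gars and Tars. The list was made of genes of the programme and Atf4 targets, so a share above that of all genes is no result about these libraries. Gars, Pycr1, Aars, Asns and Chac1 are printed as genes with high values where Atf4 was high, and Slc7a11 as the promoter with most matches but an r of 0.17; capitals mark the match and all are written 5′ to 3′ on the strand of the gene.
Gars (chr6:55037751-55038000, plus strand): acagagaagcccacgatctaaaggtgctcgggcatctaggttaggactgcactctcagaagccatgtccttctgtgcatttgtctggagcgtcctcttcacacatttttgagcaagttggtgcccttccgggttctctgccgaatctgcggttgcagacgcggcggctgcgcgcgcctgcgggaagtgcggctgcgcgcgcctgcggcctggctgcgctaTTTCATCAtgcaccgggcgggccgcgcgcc
Pycr1 (chr11:120643749-120643998, minus strand): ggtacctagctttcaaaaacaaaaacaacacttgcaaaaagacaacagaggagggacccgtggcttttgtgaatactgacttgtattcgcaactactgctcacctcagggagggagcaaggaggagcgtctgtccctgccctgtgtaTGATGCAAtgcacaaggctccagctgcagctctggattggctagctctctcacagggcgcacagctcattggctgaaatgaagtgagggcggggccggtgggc
Aars (chr8:111033592-111033841, plus strand): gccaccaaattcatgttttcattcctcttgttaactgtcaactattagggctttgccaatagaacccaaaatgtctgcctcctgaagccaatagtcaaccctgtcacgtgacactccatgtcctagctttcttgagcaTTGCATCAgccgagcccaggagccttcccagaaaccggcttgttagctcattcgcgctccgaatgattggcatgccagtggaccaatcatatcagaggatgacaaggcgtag
Asns (chr6:7693210-7693459, minus strand): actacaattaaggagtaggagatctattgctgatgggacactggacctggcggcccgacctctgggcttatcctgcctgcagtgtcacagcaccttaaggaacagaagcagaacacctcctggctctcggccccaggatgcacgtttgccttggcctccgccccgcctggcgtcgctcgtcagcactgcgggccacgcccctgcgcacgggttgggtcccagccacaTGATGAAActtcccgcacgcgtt
Chac1 (chr2:119350992-119351241, plus strand): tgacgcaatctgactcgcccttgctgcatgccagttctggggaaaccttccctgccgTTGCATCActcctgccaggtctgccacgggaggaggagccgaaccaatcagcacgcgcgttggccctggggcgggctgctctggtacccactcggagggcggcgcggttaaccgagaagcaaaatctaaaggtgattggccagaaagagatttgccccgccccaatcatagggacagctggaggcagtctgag
Slc7a11 (chr3:50443614-50443863, minus strand): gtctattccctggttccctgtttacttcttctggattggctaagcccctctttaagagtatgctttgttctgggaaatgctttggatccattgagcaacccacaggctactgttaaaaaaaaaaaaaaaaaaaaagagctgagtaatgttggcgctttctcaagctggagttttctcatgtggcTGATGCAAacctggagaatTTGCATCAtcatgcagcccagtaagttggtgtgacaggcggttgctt
Counting -1 as the base directly before the start, the leftmost base of the match lies at -30 in Gars, -103 in Pycr1, -112 in Aars, -23 in Asns and -193 in Chac1, and the pair in Slc7a11 lies at -66 and -47. Gars and Asns hold the form with A at the free position, TGATGAAA, and the other 4 printed promoters hold TGATGCAA. Read on the strand of the gene, Pycr1, Asns and the first match of Slc7a11 are in the forward sense, and Gars, Aars, Chac1 and the second match of Slc7a11 are in the reverse sense. Atf3, Nupr1, Pck2 and Tars hold a match with r of -0.17, 0.24, 0.14 and 0.33, while Stc2 and Sesn2, with higher r, and Mthfd2, which is in the count at 0.8, hold none in this window. A match is a description of letters and not evidence of binding.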

How the data were processed

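Poly(A) RNA of 13 right cortices was sequenced, and the authors deposited TPM values and FPKM values for 53832 entries per library, per the file headers. The submitters' processing notes name fastp, STAR, DESeq2, GRCm38 and mm10; the sources used here give no versions, annotation release or strandedness. Of the entries, 25412 carry assembled-transcript (MSTRG) names and 28420 Ensembl names. TPM are not counts, so log2(TPM + 0.5) was fitted with limma 3.58.1 (R 4.3.3, empirical Bayes with trend) over all 3 groups for the 18612 entries with a mean of at least 0.5 TPM, with Benjamini-Hochberg adjustment over all of them. Fold changes are on the log2(TPM + 0.5) scale and understate changes of low genes. Depth was estimated from the FPKM step of 1 fragment in 2428 single-exon genes of at least 1000 bp. GENCODE M21 (GRCm38) gave coordinates, transcript length and GC content, and a loess correction (span 0.4) of each library was fitted on the 18253 tested entries that have both.

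Groups came from the sample labels. Nothing states that libraries are separate animals, so p-values measure the spread between these samples. Relations with Atf4 used 103680 exact permutations within groups (smallest p 9.65e-06). Members and lists were chosen with earlier results of these data known. Values per library are given for called members (at most 4 a role by adjusted p) and for Eif2ak3, Atf4, Ddit3, Trib3, Chac1, Asns and Ppp1r15a, and other pathway genes for called ones only (at most 4 a list); Gars and Wars were added after their values were seen. Alternatives were other pseudocounts, minimums, scalings, the GC and length correction, robust and 2-group fits, replicate blocks and leaving out each library. The code was tested on simulated data.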

Additional observations from a re-analysis of the deposited data

Results flagged for a closer look

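Of 92 checks of single members in the APP/PS1 trazodone and WT water groups, 3 found a library whose gap to the others was large for the range of its group; chance gives about 1 in 20. Eif2ak4 measured 12.5 TPM in APP/PS1 trazodone 4, against 14.9 to 15.2 TPM in the other 3 APP/PS1 trazodone libraries. Wars measured 123 TPM in WT water 5, where the next highest WT water library had 72.6 TPM and the lowest 53.7 TPM. Nars measured 183 TPM in APP/PS1 trazodone 1, where the next highest APP/PS1 trazodone library had 147 TPM and the lowest 140.2 TPM.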

How the results depend on the processing

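For the 17 members with values per library, 1329 of 1479 values under 29 alternatives kept their side of the threshold, 27 of these with a changed sign while not called, 131 lost a call, 15 gained one and 4 reversed. The reversed values are those of Cebpb, 0.25 and -0.27 with the GC and length correction and 0.21 and -0.25 with that correction and the library-number block, for APP/PS1 water minus WT water and APP/PS1 trazodone minus APP/PS1 water.

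Between APP/PS1 water and WT water (2 members higher, 9 lower; 1153 and 3260 entries), FPKM gave 5 and 3 members and 1896 entries higher, median-ratio scaling 6 and 3 members and 1972 and 2095 entries, and quantile normalization 5 and 4 members and 2118 and 2071 entries. Rescaling after removal of hemoglobin, ribosomal protein and mitochondrial genes gave 5 members lower, the GC and length correction 4 members lower with 1177 and 1124 entries, and no minimum 1 member higher. Between APP/PS1 trazodone and APP/PS1 water (5 and 1; 2319 and 730 entries), FPKM gave 3 and 3 members and 1223 entries lower, median-ratio scaling 3 and 4 members and 1336 entries lower, quantile normalization 2 and 4 members and 1505 and 1582 entries, and rescaling 3 and 2 members and 1098 entries lower. The GC and length correction gave 0 and 2 members and 447 and 297 entries, no minimum gave 0 members lower, and the fit of the 2 groups compared 0 members and 478 entries lower. For APP/PS1 trazodone against WT water (367 and 48 entries), no minimum gave 24 entries lower. The cause of these shifts was not tested.

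Leaving out 1 library gave 0 to 4 members higher and 4 to 10 lower for APP/PS1 water against WT water (784 to 1299 and 2385 to 3378 entries), 3 to 6 higher and 0 to 2 lower for APP/PS1 trazodone against APP/PS1 water (1652 to 2417 and 395 to 787), and 0 members for APP/PS1 trazodone against WT water (251 to 385 and 28 to 54). Without WT water 3 and 6, an alternative added after seeing the data, the calls of Eif2b1, Eif2b3, Ppp1r15a, Slc7a5 and Nupr1 ended and Atf3 was called higher in APP/PS1 water than in WT water (0.93, adjusted p = 0.0322); the corrected relation to Atf4 was also added then.

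The numbers in titles and in library names do not pair the samples: 2 of 10 same-number pairs correlated over 0.1 under either (mean r 0.03 and 0.01). With the title number as a replicate block, 1 member was higher and 10 lower in APP/PS1 water than in WT water. With trazodone 6 members were higher and 0 lower than in APP/PS1 water, and 24 entries were lower than in WT water. Against WT water this block added lower calls for Atf5 (-0.57), Chac1 (-1.13), Shmt2 (-0.32), Aars (-0.46) and Wars (-0.45) and a higher one for Atf3 (1.07), with adjusted p 0.00471 to 0.0499. It ended those of Eif2b1, Eif2b3, Ddit3, Cebpb, Slc7a5 and Slc7a11. The library-number block gave 0 and 4 members and 592 and 1720 entries for APP/PS1 water against WT water, 3 and 0 members and 1435 and 295 entries for APP/PS1 trazodone against APP/PS1 water, and 215 and 20 entries for APP/PS1 trazodone against WT water. With the correction added, this block gave 1 and 2 members and 565 and 358 entries, 0 and 0 members and 127 and 58 entries, and 221 entries higher in the last comparison. Alternatives for members under the TPM minimum were not run, since all 46 passed. Members near 1 TPM (Trib3, Stc2, Pycr1) rest on the fewest fragments.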

Other observations

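Among 8 other cytosolic tRNA synthetases, 1 was higher and 2 lower in APP/PS1 water than in WT water, and 2 were higher and 1 lower with trazodone than in APP/PS1 water. The shares over all entries were 6.19%, 17.5%, 12.5% and 3.92% in the same order. Kars, the lysyl-tRNA synthetase, measured 71.7, 73.3, 65.7 and 80.9 TPM in APP/PS1 trazodone and 55.0, 58.3 and 49.2 TPM in APP/PS1 water. The APP/PS1 groups did not overlap (0.43 ± 0.08, adjusted p = 0.00364 in limma; 0.40, adjusted p = 0.0160 after the GC and length correction). Against WT water, Kars was lower in APP/PS1 water (-0.40 ± 0.08, adjusted p = 0.00203; -0.38, adjusted p = 0.00487 corrected). Farsa, a subunit of the phenylalanyl enzyme, was lower in APP/PS1 water than in WT water (-0.38 ± 0.07, adjusted p = 0.00128) and higher with trazodone (0.23 ± 0.07, adjusted p = 0.0491). After the correction the difference from WT water was -0.29 (adjusted p = 0.0191) and that with trazodone 0.14 (adjusted p = 0.362), and with trazodone Farsa was also not called when APP/PS1 water 1 was left out (adjusted p = 0.145) or with median-ratio scaling (0.218). Dars, the aspartyl enzyme, was higher in APP/PS1 water than in WT water (0.24 ± 0.07, adjusted p = 0.0204) and lower with trazodone (-0.23 ± 0.07, adjusted p = 0.0483). Neither Dars call was kept after the correction (0.11, adjusted p = 0.311, and -0.07, adjusted p = 0.650) or without APP/PS1 water 1 (adjusted p = 0.0855 and 0.151). Of 16 mitochondrial synthetases, Aars2 and Sars2 were lower in APP/PS1 water than in WT water (-0.44 and -0.34) and Aars2 was higher with trazodone (0.50); after the correction these values were -0.07, -0.01 and 0.11, none of them called.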
